A study of Mus musculus with 9 samples.

Results

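Transcripts of 45 genes that carry glucose to pyruvate, lactate and carbon dioxide were examined in embryonic mouse hearts with a point mutation in *Ctcf*. The genes were listed by function, with earlier results of these data known, and all 45 were found among the 24597 symbols of the expression table. They comprised 16 glycolytic enzymes, 6 genes of lactate metabolism and of glucose and lactate transport, 6 genes of the pyruvate dehydrogenase complex and its kinases, and 17 genes of the tricarboxylic acid (TCA) cycle. Levels were given as TPM, an abundance unit that corrects for transcript length and sets every library to a common total. Averaged across the 9 libraries, all 45 genes reached 1 TPM, and they were tested together with the other genes that did, 13682 in all.

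CTCF is a zinc finger protein that shapes chromatin loops and domains, and the study asked how the CTCF-R567W substitution, introduced into C57BL/6N mice with CRISPR/Cas9, affected gene expression in the heart. Hearts of E18.5 embryos were compared between wild-type embryos, embryos heterozygous for the mutation and homozygous embryos, with 3 libraries per genotype. The groups shared strain, age and tissue, and the allele was present throughout the body. The study's methods describe hearts that were excised and frozen separately, but neither they nor the labels tie the libraries to litters. Each library held RNA of heart tissue rather than of sorted cells, so that fewer cells of a type and less RNA per cell cannot be told apart.

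Glycolysis breaks glucose down to pyruvate in the cytosol. Lactate dehydrogenase interconverts pyruvate and lactate, monocarboxylate transporters carry lactate across the cell membrane, and the pyruvate dehydrogenase complex turns pyruvate into the acetyl-CoA that the TCA cycle oxidises in mitochondria. The heart before birth relies on glucose and lactate to a large extent, and around birth it turns towards mitochondrial oxidation of fatty acids.

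Several glycolytic genes are textbook targets of the hypoxia-inducible factors, which bind a core of 5 letters, ACGTG or GCGTG. This core was searched on both strands of the 250 bases upstream of each annotated start site, in RefSeq promoter sequences of build GRCm38.p6. Of the 45 genes, 42 matched a promoter by symbol, with 60 start sites, and 32 of the 42 genes held the core upstream of at least 1 start site. Per start site the share was 73.3%, against 38.6% of 32851 start sites of all genes. These include genes not expressed in the heart, and they were not matched for base composition. Whether the difference in share is specific to the core can therefore not be told. The share was 73.1% for glycolysis, 100% for the 6 start sites of the lactate and transport genes, 50% for pyruvate dehydrogenase and 75% for the TCA cycle. A match is a string of letters and not a binding site, and no binding was measured here. Stretches of 30 bases are shown for the 4 genes whose homozygous levels lay below all wild-type levels, for *Ldha*, and for *Idh2* and *Mdh1*, the most abundant TCA cycle genes. Each was picked to hold the most letters of the core over all RefSeq start sites of its gene, of which *Aldoa* has 3 and *Ldha* 2. Those of *Slc16a3*, *Gapdh*, *Ldha* and *Mdh1* lie inside the GENCODE coordinates of the gene, which begin further upstream. Capitals mark the core or its reverse complement, CACGT or CACGC, and in *Ldha* an ACGTG and a CACGT overlap. Each line is in the direction of transcription.
*Slc16a3* at chr11:120949034-120949063, plus strand: gcggtgACGTGcgcgggggACGTGccgcgc
*Pgk1* at chrX:106186947-106186976, plus strand: aggACGTGacaaatggaagtagCACGTctc
*Aldoa* at chr7:126799364-126799393, minus strand: atgtggctcgagtCACGTcctagcggggcg
*Gapdh* at chr6:125165806-125165835, minus strand: ggagcccaCACGCttggtGCGTGcacattt
*Ldha* at chr7:46845750-46845779, plus strand: agcctaCACGTGggttcccgCACGTccgct
*Idh2* at chr7:80115407-80115436, minus strand: ggctcctgccctgGCGTGgacccgccttct
*Mdh1* at chr11:21572117-21572146, minus strand: tctcggtggagcgACGTGtgctgtcgctca

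Some libraries stood apart before any comparison. The 11 thymocyte genes, among them *Cd3e*, *Cd8a* and *Rag1*, summed to 575 TPM in homozygous replicate 3, where all 11 reached 1 TPM, and to between 0.53 and 2.81 TPM in the other libraries. Airway and lung genes summed to 3620 TPM in wild-type replicate 1 and to 1631 TPM in heterozygous replicate 1, against 2.23 to 77.2 TPM elsewhere, and *Lamp3* was listed at 0 in 7 of the 9 libraries. Liver genes summed to 4090 TPM in heterozygous replicate 1 and to 168 TPM in wild-type replicate 1, against 30.5 to 75.1 TPM. Each of the 8 cardiomyocyte genes reached 1 TPM in every library, and their sum was lowest in homozygous replicate 3, at 30736 TPM, against 36788 to 43168 TPM in the other libraries. Sums of 7 erythroid genes spanned 2853 to 15542 TPM, and the 15 mitochondrially encoded genes took 222204 to 277776 TPM. By *Xist* and Y-linked transcripts, the heterozygous libraries were female and the other groups held both sexes. *Pgk1*, *Pdha1* and *Idh3g* are X-linked. On the TPM scale no gene of the 45 was called in any comparison, with sex as a covariate or without it, so these calls cannot show an effect of sex. A fit with sex after the median-ratio scaling described below was not made.

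Homozygous replicate 3 had the lowest level of the 9 libraries for 39 of the 45 genes, and wild-type replicate 1 for the other 6. Wild-type replicate 3 was highest for 21 genes, homozygous replicate 2 for 10 and heterozygous replicate 3 for 9. The 45 genes together made up 1.79% to 2.54% of a library. The part of the thymocyte transcripts in these levels was not tested, and results are therefore also given without the 3 libraries named above. These are wild-type replicate 1, heterozygous replicate 1 and homozygous replicate 3. Such fits lack 1 of the 3 libraries of each genotype, so that lost calls can also come from fewer libraries.

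Homozygous against wild-type hearts gave no called gene among the 45. In this comparison 46 of 13682 genes passed a limma adjusted p under 0.05, or 0.336%. The 16 glycolytic genes had a median log2 change of -0.19, with 13 below 0, and the 6 lactate and transport genes a median of -0.16, with 4 below 0. The 6 pyruvate dehydrogenase genes had a median of 0.04, with 3 below 0, and the 17 TCA cycle genes a median of 0.01, with 8 below 0. Over all tested genes the median was 0.23, so that all 45 genes lay below the typical gene, glycolysis by 0.42 and the TCA cycle by 0.22. This position was not particular to them. Of the 8 cardiomyocyte genes, 7 also lay below that median and 1 above, with a median 0.24 below it. The 11 thymocyte genes all lay above it. At an unadjusted p under 0.05, 3 genes were lower and none higher, namely *Gapdh*, *Pgk1* and *Slc16a3*, against 2.16% of all genes lower and 22.9% higher.

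**Figure D1:**
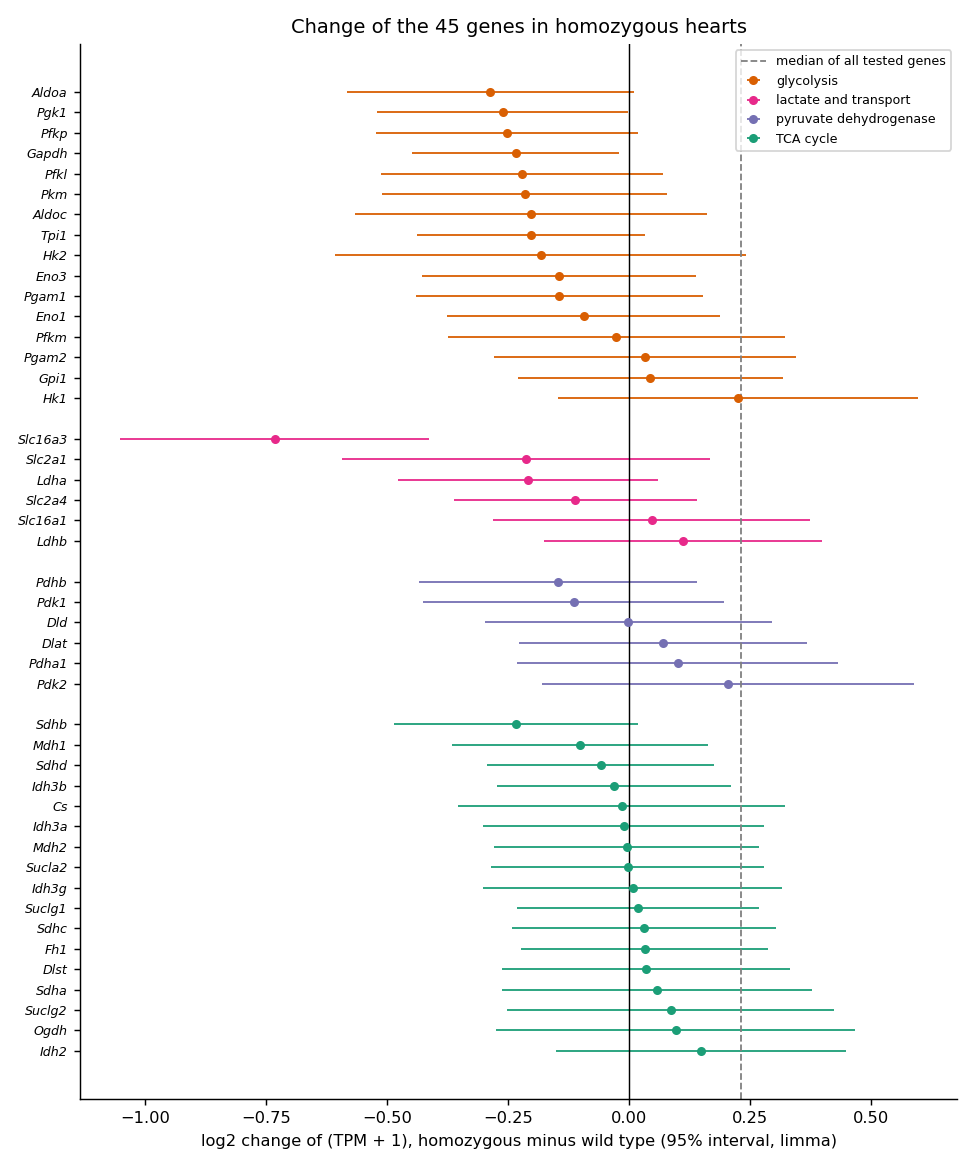
Log2 change of each of the 45 genes in homozygous against wild-type hearts, on the scale of log2(TPM + 1), with points for the estimate, bars for the 95% interval of the limma fit (3 libraries per group) and a dashed line at the median of all tested genes. All 45 points lie left of the dashed line, and *Slc16a3* is the furthest to the left at -0.73.

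In 4 genes, every homozygous library lay below every wild-type library, namely *Aldoa*, *Gapdh*, *Pgk1* and *Slc16a3*, and in none did every homozygous library lie above. Of all tested genes, 2.38% were separated downwards and 22.3% upwards. With 3 libraries against 3, an exact two-sided permutation test of 1 gene cannot give a p below 0.1.

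The genes of the first steps of glycolysis overlapped between homozygous and wild-type hearts. Hexokinase 1 (*Hk1*), which traps glucose in the cell as glucose 6-phosphate, stood at 114, 132 and 162 TPM in the wild-type, 146, 158 and 178 TPM in the heterozygous and 171, 182 and 125 TPM in the homozygous libraries. The wild-type range ran into that of both other groups, and the log2 change of 0.23 (SE 0.17 with limma, adjusted p = 0.394) was the highest of the 45 genes. The second hexokinase, *Hk2*, was measured at 32.04, 32.5 and 43.5 TPM in the wild-type, 42.3, 42.6 and 42.8 TPM in the heterozygous and 39.7, 33.9 and 22.8 TPM in the homozygous libraries. The heterozygous libraries lay close together and above all homozygous libraries, of which replicate 3 was the lowest of the series. Glucose-6-phosphate isomerase (*Gpi1*) was listed at 369, 341 and 418 TPM in the wild-type, 400.3, 406 and 432 TPM in the heterozygous and 414, 431 and 324 TPM in the homozygous libraries. Again the groups overlapped, and its log2 change was 0.04, with a 95% interval of -0.23 to 0.32.

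Phosphofructokinase catalyses the committed step. The muscle form *Pfkm*, the most abundant of its 3 genes, had 136, 141 and 176 TPM in the wild-type, 148, 152 and 176 TPM in the heterozygous and 157, 173 and 118 TPM in the homozygous libraries. The highest homozygous and the highest wild-type value were nearly equal, and the log2 change was -0.03. The liver form *Pfkl* and the platelet form *Pfkp* had log2 changes of -0.22 and -0.25, neither called (limma adjusted p = 0.301 and 0.225).

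Aldolase A (*Aldoa*), which splits the sugar into trioses, followed *Gapdh* as the most abundant glycolytic transcript. Its levels were 1694, 1654 and 2034 TPM in the wild-type, 1748, 1761 and 1962 TPM in the heterozygous and 1604, 1649 and 1189 TPM in the homozygous libraries. Homozygous replicate 2 lay just below the lowest wild-type library and replicate 3 far below it, so that the separation was narrow. The difference on the log2 scale was -0.29 (SE 0.13 with limma, adjusted p = 0.212), and without homozygous replicate 3 it was -0.14. Aldolase C (*Aldoc*), the brain form, was the least abundant of the 45 genes, with a mean of 9.76 TPM over the 9 libraries and a log2 change of -0.20. Triosephosphate isomerase (*Tpi1*) measured 888, 867 and 967 TPM in the wild-type, 869, 862 and 917 TPM in the heterozygous and 869.6, 835 and 674 TPM in the homozygous libraries. Homozygous replicate 1 fell inside the wild-type range, and the log2 change was -0.20 (limma adjusted p = 0.251).

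The payoff steps included the most abundant of the transcripts. Glyceraldehyde-3-phosphate dehydrogenase (*Gapdh*, chr6:125161715-125166467, mm10) was the highest, at 4800.0, 4908 and 5276 TPM in the wild-type, 4603, 4483 and 4882 TPM in the heterozygous and 4534, 4567 and 3692 TPM in the homozygous libraries. All homozygous values lay below all wild-type values, and the heterozygous values lay between and overlapped both groups. The group means were 4995 ± 249.7 TPM (SD, n = 3) in wild-type and 4264 ± 496 TPM (SD, n = 3) in homozygous hearts, a log2 change of -0.23 (SE 0.10 with limma, adjusted p = 0.174). Phosphoglycerate kinase 1 (*Pgk1*, chrX:106187100-106203699), the first step that yields ATP, was found at 709, 719 and 822 TPM in the wild-type, 722, 682 and 760.4 TPM in the heterozygous and 679, 681 and 527 TPM in the homozygous libraries. Homozygous hearts were again below wild-type hearts without overlap, with a log2 change of -0.26 (SE 0.12 with limma, adjusted p = 0.197). Without homozygous replicate 3 the change was -0.13 for *Gapdh* and -0.14 for *Pgk1*, both uncalled (limma adjusted p = 0.232 and 0.274).

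Phosphoglycerate mutase shifts the phosphate group and is made from *Pgam1*, the widespread form, and *Pgam2*, the muscle form. *Pgam1* stood at 253, 246 and 320.3 TPM in the wild-type, 288, 261 and 305 TPM in the heterozygous and 276, 250.2 and 213 TPM in the homozygous libraries. *Pgam2*, the more abundant, stood at 782, 730.0 and 816 TPM in the wild-type, 843, 722 and 847 TPM in the heterozygous and 882, 909 and 624 TPM in the homozygous libraries. Homozygous replicates 1 and 2 held the highest *Pgam2* values of the series and replicate 3 the lowest, and the groups overlapped for both genes.

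Enolase comes in a widespread form, *Eno1*, and a muscle form, *Eno3*. *Eno1* measured 568, 553 and 674 TPM in the wild-type, 612, 592 and 679 TPM in the heterozygous and 635, 584 and 469.8 TPM in the homozygous libraries. *Eno3* measured 589, 551 and 712 TPM in the wild-type, 602, 599 and 674 TPM in the heterozygous and 586, 615 and 475 TPM in the homozygous libraries. Levels of both genes overlapped between all groups. Pyruvate kinase (*Pkm*), which ends glycolysis, was listed at 703, 711 and 868 TPM in the wild-type, 746, 747 and 843 TPM in the heterozygous and 710.5, 725 and 538 TPM in the homozygous libraries. Homozygous replicates 1 and 2 lay within the wild-type range and all 3 below the heterozygous libraries, and the log2 change was -0.21 (limma adjusted p = 0.315).

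The proton-coupled lactate exporter MCT4, encoded by *Slc16a3* (chr11:120948480-120960868), showed the largest difference of the 45 genes. Its levels were 76.1, 76.6 and 106 TPM in the wild-type, 75.9, 70.7 and 85.3 TPM in the heterozygous and 53.9, 52.0 and 47.2 TPM in the homozygous libraries. The homozygous libraries lay close together below all 6 others, and the thymocyte-rich replicate 3 differed little from its group. The group means were 86.3 ± 17.3 TPM (SD, n = 3), 77.3 ± 7.40 TPM (SD, n = 3) and 51.0 ± 3.40 TPM (SD, n = 3) in wild-type, heterozygous and homozygous hearts. The log2 change against wild type was -0.73 (SE 0.14 with limma, adjusted p = 0.0697) and missed the threshold. The change was -0.68 without homozygous replicate 3 (limma adjusted p = 0.0618) and -0.76 without all 3 libraries that stood apart (limma adjusted p = 0.179). It was below 0 in all 27 settings tried, from -1.002 to -0.57, and was called in 6 of them, with limma adjusted p between 0.000747 and 0.237. Many of these settings left the estimate at -0.73 and so are no separate check of its sign. They changed only the filter, the eBayes options of limma, the groups fitted, the sex term, the replicate block or the heterozygous libraries.

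MCT1, the related transporter encoded by *Slc16a1* and able to take lactate up, was not separated from wild type. Its levels were 42.5, 52.7 and 63.1 TPM in the wild-type, 57.8, 58.9 and 69.6 TPM in the heterozygous and 57.6, 53.6 and 50.7 TPM in the homozygous libraries. The homozygous values lay inside the wild-type range and below the heterozygous values. *Slc16a1* made up 35.8%, 40.8% and 37.3% of the summed TPM of both transporters in wild-type libraries. The share was 43.2%, 45.4% and 44.9% in heterozygous and 51.7%, 50.8% and 51.8% in homozygous libraries. The 3 groups did not overlap in this share, which stood at 38.0% ± 2.55, 44.5% ± 1.17 and 51.4% ± 0.553 (SD, n = 3).

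The subunits of lactate dehydrogenase differ in that LDHA prevails in muscle that makes lactate and LDHB in the adult heart, which oxidises it. *Ldha* (chr7:46841475-46855627) stood at 1225, 1230.0 and 1409 TPM in the wild-type, 1347, 1257 and 1366 TPM in the heterozygous and 1239, 1212 and 916 TPM in the homozygous libraries. *Ldhb* stood at 847, 882 and 973 TPM in the wild-type, 937, 944 and 1013 TPM in the heterozygous and 1023, 1143 and 786 TPM in the homozygous libraries. Homozygous replicates 1 and 2 had the highest *Ldhb* levels of the series while their *Ldha* levels were near those of wild-type replicates 1 and 2. The log2 changes were -0.21 (SE 0.12 with limma, adjusted p = 0.29) and 0.11 (SE 0.13 with limma, adjusted p = 0.579), neither called, and the change of *Ldhb* turned to -0.13 after median-ratio scaling, in which each library is divided by the median ratio of its genes to their geometric mean. The share of *Ldha* in the sum was 59.1%, 58.2% and 59.1% in wild-type, 59.0%, 57.1% and 57.4% in heterozygous, and 54.8%, 51.5% and 53.8% in homozygous libraries. The homozygous shares lay below the 6 others, and such a share does not depend on the scaling of a library.

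The glucose transporters showed no separation between homozygous and wild-type hearts. GLUT1, encoded by *Slc2a1* and typical of the fetal heart, was measured at 39.3, 36.0 and 43.6 TPM in the wild-type, 47.1, 46.9 and 42.9 TPM in the heterozygous and 42.4, 36.5 and 25.3 TPM in the homozygous libraries. GLUT4, the insulin-responsive transporter encoded by *Slc2a4*, was measured at 44.1, 51.3 and 53.8 TPM in the wild-type, 45.6, 45.9 and 49.2 TPM in the heterozygous and 49.6, 45.03 and 43.1 TPM in the homozygous libraries. *Slc2a1* made up 36.9% to 50.8% of their sum, lowest in homozygous replicate 3, and the wild-type shares overlapped those of both other groups.

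**Figure D2:**
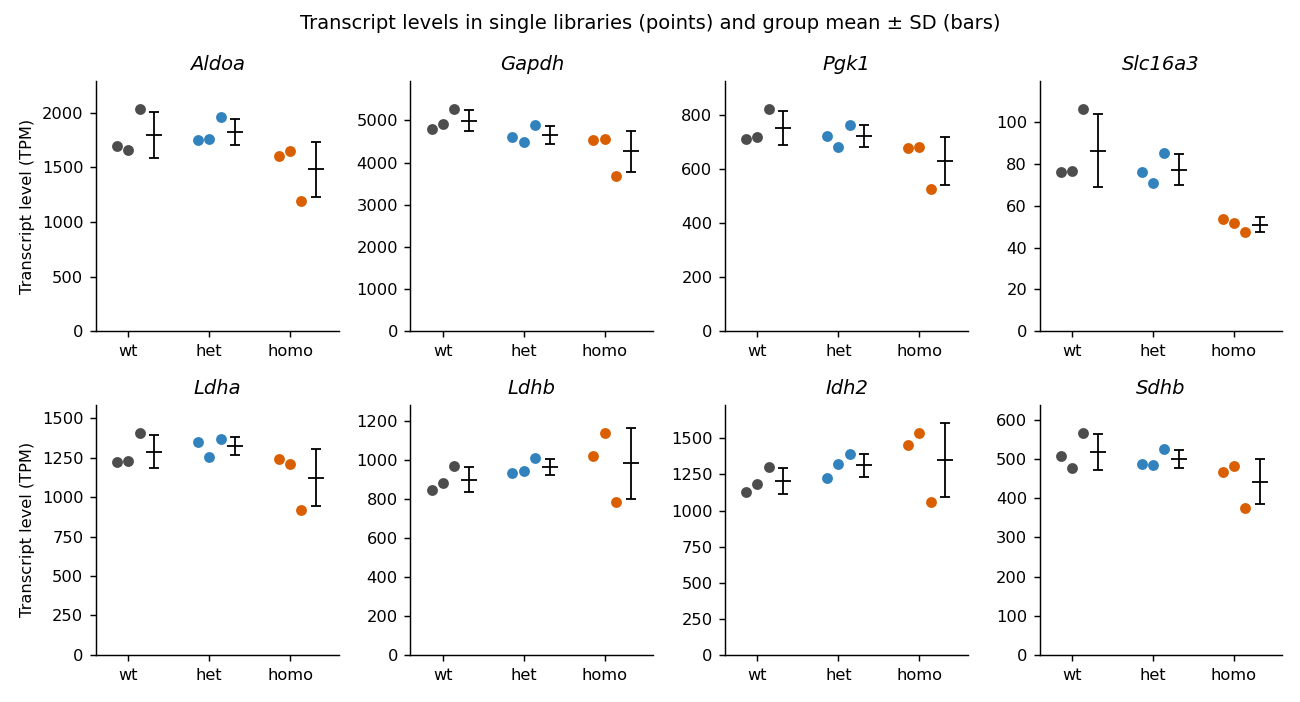
Transcript level in TPM of 8 of the genes in each library (points) with the mean ± SD of each genotype (n = 3 each), for wild-type (wt), heterozygous (het) and homozygous (homo) hearts, on axes that start at 0. The homozygous points of *Slc16a3* lie at 47.2 to 53.9 TPM below all others, and homozygous replicate 3 is also the lowest point for each of the other 7 genes.

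Pyruvate dehydrogenase kinases switch the complex off by phosphorylation, and *Pdk2* is the most widespread form. *Pdk1* stood at 81.9, 82.4 and 94.1 TPM in the wild-type, 84.7, 97.2 and 90.6 TPM in the heterozygous and 85.1, 91.8 and 64.0 TPM in the homozygous libraries. *Pdk2* stood at 87.6, 90.3 and 112 TPM in the wild-type, 94.2, 99.8 and 116 TPM in the heterozygous and 117, 136 and 85.0 TPM in the homozygous libraries. Homozygous replicates 1 and 2 had the highest *Pdk2* levels of the series and replicate 3 the lowest, and the log2 change of *Pdk2* was 0.21 (SE 0.17 with limma, adjusted p = 0.449). *Pdk1* contributed 48.3%, 47.7% and 45.7% of the pair in wild-type, 47.3%, 49.3% and 43.8% in heterozygous, and 42.0%, 40.2% and 42.9% in homozygous libraries, and the homozygous shares lay below the 6 others.

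The subunits of the complex itself overlapped between groups. *Pdhb*, the beta subunit of the decarboxylase and the most abundant transcript of the complex, was listed at 450.4, 481 and 531 TPM in the wild-type, 466, 476 and 534 TPM in the heterozygous and 481, 489 and 360.2 TPM in the homozygous libraries. *Dlat*, its acetyltransferase, was listed at 96.4, 117 and 119.5 TPM in the wild-type, 104, 110.3 and 123 TPM in the heterozygous and 124, 128 and 98.6 TPM in the homozygous libraries. *Dld*, the lipoamide dehydrogenase shared with the TCA cycle, was listed at 182, 203 and 245 TPM in the wild-type, 219, 209 and 241 TPM in the heterozygous and 225, 223 and 180.2 TPM in the homozygous libraries. For each of these subunits homozygous replicate 3 was lower than replicates 1 and 2, which lay near or within the wild-type range. The log2 changes were -0.15 for *Pdhb* and 0.07 for *Dlat*, the interval of *Dld* was -0.30 to 0.30, and the log2 change of the X-linked alpha subunit *Pdha1* was 0.10.

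The log2 changes of the 17 TCA cycle genes spread around 0, from -0.23 for *Sdhb* to 0.15 for *Idh2*. Citrate synthase (*Cs*), which admits acetyl-CoA to the cycle, stood at 351, 397 and 482 TPM in the wild-type, 411, 421 and 495 TPM in the heterozygous and 438, 453 and 329.7 TPM in the homozygous libraries. Its log2 change was -0.01, and the wild-type range enclosed all homozygous values but that of replicate 3. Mitochondrial isocitrate dehydrogenase (*Idh2*), which uses NADP, was the most abundant transcript of the cycle, at 1129, 1184 and 1303 TPM in the wild-type, 1227, 1321 and 1389.7 TPM in the heterozygous and 1456, 1541 and 1058 TPM in the homozygous libraries. Homozygous replicates 1 and 2 were the highest of the series and replicate 3 the lowest, so that the log2 change of 0.15 (SE 0.14 with limma, adjusted p = 0.48) had a wide spread behind it and turned to -0.09 after median-ratio scaling. The NAD-dependent isocitrate dehydrogenase genes *Idh3a*, *Idh3b* and *Idh3g* had log2 changes of -0.01, -0.03 and 0.01.

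The 2-oxoglutarate dehydrogenase subunit *Ogdh* was measured at 201, 239.7 and 306 TPM in the wild-type, 261, 273 and 318 TPM in the heterozygous and 287, 291 and 216 TPM in the homozygous libraries. The succinyl-CoA ligase subunit *Sucla2* was measured at 228, 231 and 278 TPM in the wild-type, 241, 249.8 and 264 TPM in the heterozygous and 261, 274 and 205 TPM in the homozygous libraries. Homozygous replicates 1 and 2 lay within the wild-type range for both genes. The remaining genes of these steps, *Dlst*, *Suclg1* and *Suclg2*, had log2 changes of 0.04, 0.02 and 0.09.

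Succinate dehydrogenase also serves as complex II of the respiratory chain. Its iron-sulfur subunit *Sdhb* had the lowest log2 change of the TCA cycle genes, with 507, 477 and 567 TPM in the wild-type, 487, 485 and 526 TPM in the heterozygous and 467, 482 and 376 TPM in the homozygous libraries. Homozygous replicate 2 slightly exceeded wild-type replicate 2, and the log2 change was -0.23 (SE 0.11 with limma, adjusted p = 0.227). The other subunits did not follow it, with log2 changes of 0.06 for the flavoprotein *Sdha*, 0.03 for *Sdhc* and -0.06 for *Sdhd*, the membrane anchors. The difference between *Sdhb* and the other subunits was not tested.

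Fumarase (*Fh1*) stood at 150.3, 155 and 176 TPM in the wild-type, 168, 160.3 and 169 TPM in the heterozygous and 178, 175 and 141 TPM in the homozygous libraries. The cytosolic malate dehydrogenase *Mdh1*, a partner in the malate-aspartate shuttle, stood at 894, 942 and 1132 TPM in the wild-type, 926, 959 and 1023 TPM in the heterozygous and 1002, 976 and 791 TPM in the homozygous libraries. Neither was separated between genotypes, and the log2 changes were 0.03 and -0.10. For the mitochondrial *Mdh2* the 95% interval of the log2 change was -0.28 to 0.27.

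The glycolytic and the TCA part were then set against each other. The TPM of the 16 glycolytic genes summed to 11828, 11777 and 13515 in wild-type, 11976, 11678 and 12921 in heterozygous and 11744, 11820 and 9138 in homozygous libraries. The sums of the 17 TCA cycle genes were 6380, 6650 and 7788 in wild-type, 6929, 7065 and 7709 in heterozygous and 7507, 7640 and 5795 in homozygous libraries. Homozygous replicate 3 was lowest in both sums and the groups overlapped. The ratio of the glycolytic to the TCA sum within a library, which does not depend on library scaling, was 1.85, 1.77 and 1.74 in wild-type, 1.73, 1.65 and 1.68 in heterozygous and 1.56, 1.55 and 1.58 in homozygous libraries. The genotypes did not overlap, and homozygous replicate 3 lay with the other homozygous libraries. How often ratios of other gene sets separate the genotypes in this way was not computed.

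The mean ratio was 1.79 ± 0.0609 in wild-type, 1.69 ± 0.0388 in heterozygous and 1.56 ± 0.0150 in homozygous hearts (SD, n = 3). As the list was drawn up with earlier results of these data known, no test of the ratio is given. When *Gapdh* and *Idh2*, the most abundant gene of each part, were left out, the ratio was 1.34, 1.26 and 1.27 in wild-type, 1.29, 1.25 and 1.27 in heterozygous and 1.19, 1.19 and 1.15 in homozygous libraries. Wild-type and heterozygous libraries then overlapped, and the homozygous libraries remained lowest. With lactate and transport genes added to the numerator and pyruvate dehydrogenase genes to the denominator, the homozygous ratios of 1.60, 1.58 and 1.61 were again below the 6 others, which spanned 1.68 to 1.87. Among those, the lowest wild-type ratio was 1.75 and the highest heterozygous ratio 1.76. The difference of the mean log2 levels of both parts was -0.13, -0.16 and -0.18 in homozygous libraries. It was -0.055 to 0.034 in the 6 others, where wild-type and heterozygous libraries overlapped as well.

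**Figure D3:**
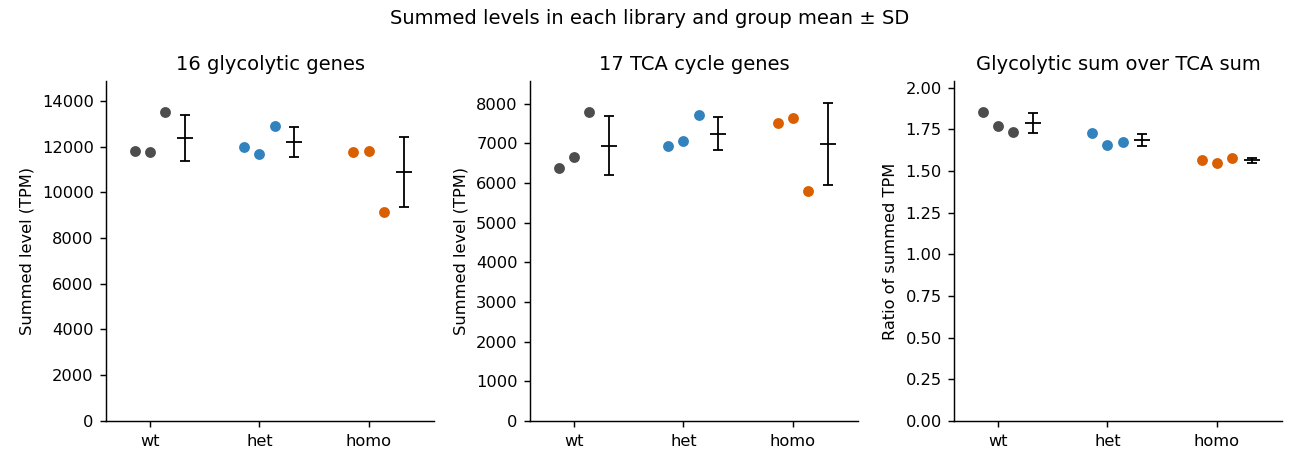
Summed TPM of the 16 glycolytic genes, summed TPM of the 17 TCA cycle genes, and their ratio in each library (points) with the mean ± SD of each genotype (n = 3), for wild-type (wt), heterozygous (het) and homozygous (homo) hearts. Both sums overlap between genotypes, whereas the homozygous ratios of 1.55 to 1.58 lie below all others.

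In homozygous against wild-type hearts, the median log2 change of glycolysis minus that of the TCA cycle was -0.20. In the 27 settings tried it was below 0 each time, from -0.23 to -0.13. Several of these settings left the estimate unchanged and so are no separate check of its sign. They were no filter, a filter at 5 TPM, other eBayes options, a fit of both groups only, the sex term, the replicate block and each left-out heterozygous library. Without homozygous replicate 3 it was -0.18, with 10 of 16 glycolytic and 1 of 17 TCA cycle genes below 0 and 42 of the 45 genes below the median of all genes. Without the 3 libraries that stood apart it was -0.13, with 11 of 16 glycolytic and 2 of 17 TCA cycle genes below 0.

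**Figure D4:**
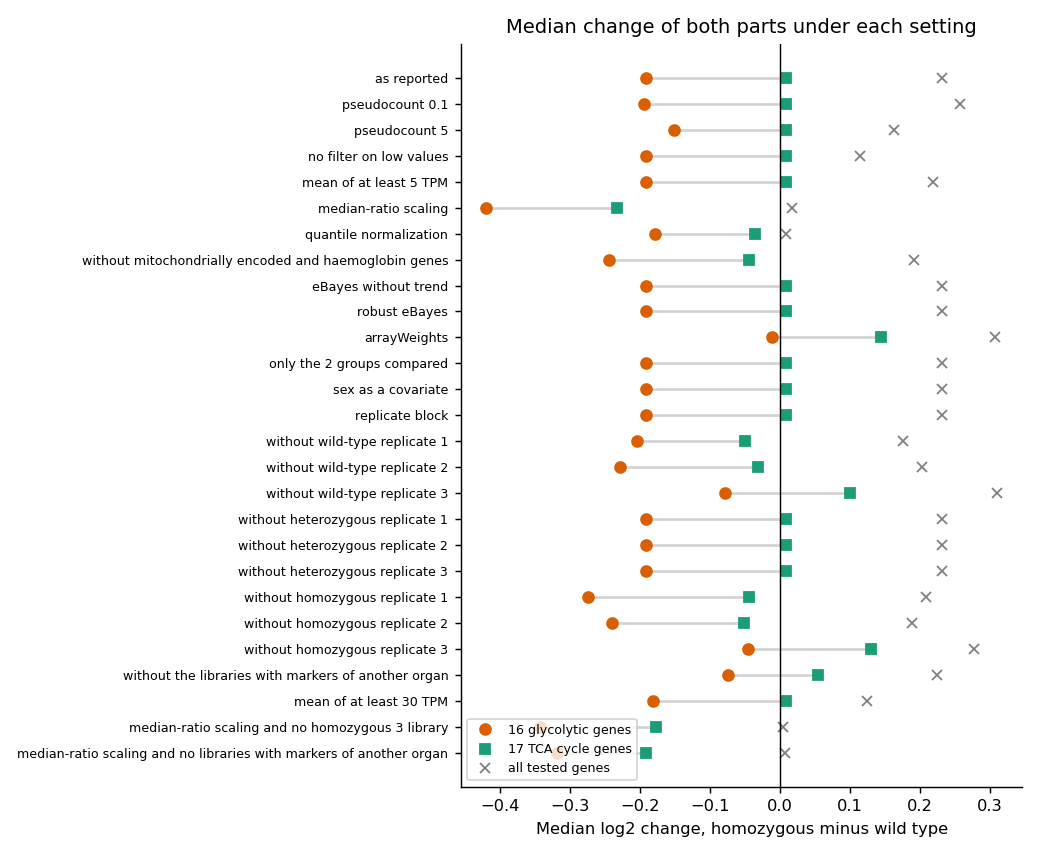
Median log2 change in homozygous against wild-type hearts of the 16 glycolytic genes (circles), the 17 TCA cycle genes (squares) and all tested genes (crosses) under each of the 27 settings, 1 line per setting. The circle lies left of the square on every line, while the position of both against 0 moves with the scaling and the libraries used. Circle and square do not move in settings that leave the estimates unchanged.

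Scaling decided how many of the genes were called. TPM fixes only the total of a library, and 81.7% of all tested genes had a log2 change above 0 in homozygous hearts on this scale. After median-ratio scaling the median of all genes was 0.02, and 12 of the 45 genes were called, all lower, against 1.37% of all genes called lower. The glycolytic genes among them were *Pfkl*, *Pfkp*, *Aldoa*, *Tpi1*, *Gapdh*, *Pgk1*, *Pgam1*, *Eno3* and *Pkm*, with log2 changes from -0.53 for *Aldoa* to -0.38 for *Pgam1*. *Slc16a3* fell by 0.97 (limma adjusted p = 0.000747), *Ldha* by 0.45 and *Sdhb* by 0.47. After this scaling the homozygous libraries lay below all wild-type libraries for 14 of 16 glycolytic, 4 of 6 lactate and transport, 4 of 6 pyruvate dehydrogenase and 13 of 17 TCA cycle genes, against 12.2% of all genes. Homozygous replicate 3 was then lowest for 42 of the 45. Without that library 8 genes were called on this scale, namely *Pfkl*, *Pfkp*, *Aldoa*, *Pgk1*, *Pkm*, *Ldha*, *Slc16a3* and *Sdhb*. Without the 3 libraries that stood apart none was called, with 16 calls among all genes, in a fit with fewer libraries per group. The median log2 change there was -0.32 for glycolysis and -0.19 for the TCA cycle, and 42 of the 45 genes lay below the median of all genes.

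On the scaled levels *Slc16a3* stood at 90.9, 87.7 and 103 in wild-type, 74.3, 73.1 and 79.3 in heterozygous and 48.4, 45.4 and 48.0 in homozygous libraries, and the 3 groups did not overlap. *Gapdh* stood at 5734, 5623 and 5096, at 4505, 4635 and 4535, and at 4078, 3995 and 3747 in the same order, again without overlap. Levels of abundant genes carry much of the total. On the TPM scale, without median-ratio scaling, the comparison was therefore repeated among the 3324 genes that averaged 30 TPM or more. There the median of all genes was 0.12, and 41 of the 44 genes that passed lay below it. This filter was not combined with median-ratio scaling.

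The balance between paired isoforms was read from their shares, which are free of library scaling. Of 7 pairs, 4 separated the homozygous libraries from all others, namely *Slc16a1* with *Slc16a3*, *Ldha* with *Ldhb*, *Pdk1* with *Pdk2*, and *Hk1* with *Hk2*. How often pairs of other genes separate in this way was not computed, so this count has no background to be read against. *Hk1* made up 78.0%, 80.2% and 78.8% of the hexokinase pair in wild-type, 77.5%, 78.7% and 80.6% in heterozygous and 81.2%, 84.3% and 84.6% in homozygous libraries. The shares of *Pgam1*, at 21.6% to 28.2%, and of *Eno1*, at 48.6% to 52.0%, overlapped between homozygous and wild-type libraries.

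**Figure D5:**
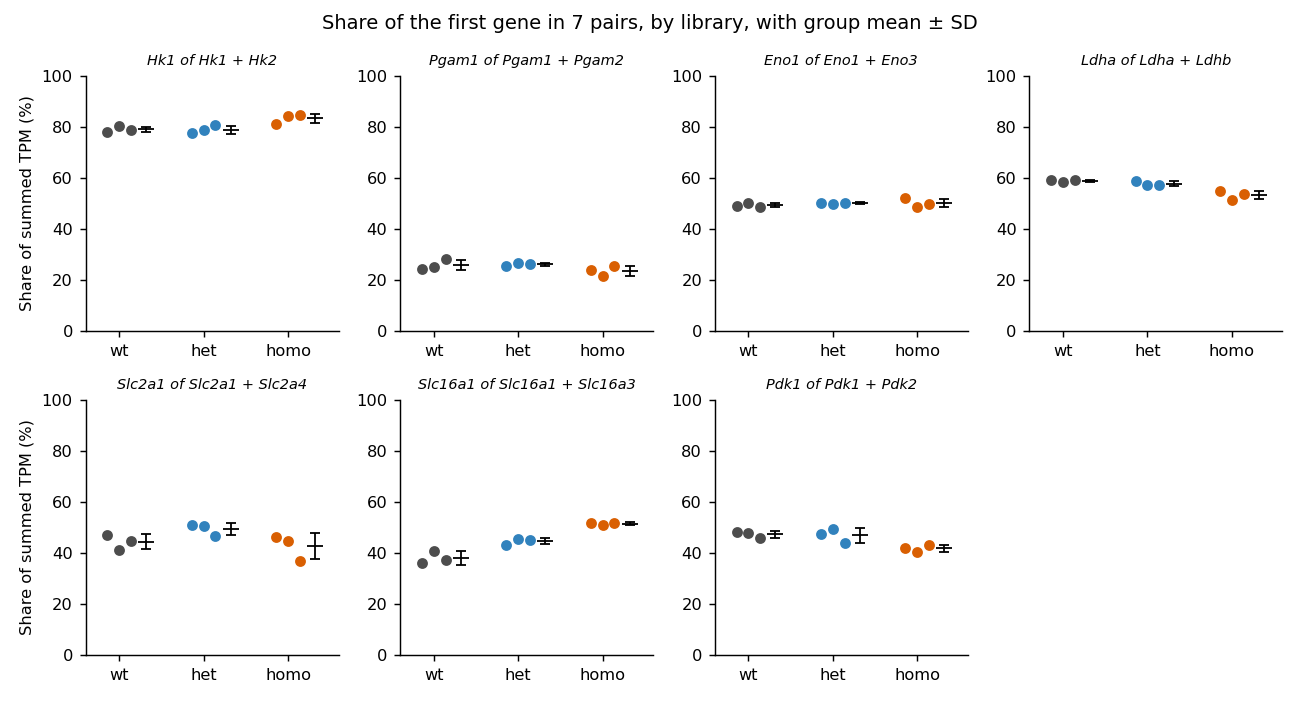
Share of the first gene in the summed TPM of 7 pairs, in percent, in each library (points) with the mean ± SD of each genotype (n = 3), for wild-type (wt), heterozygous (het) and homozygous (homo) hearts. The 3 genotypes are apart for *Slc16a1* with *Slc16a3*, from 35.8% in the lowest wild-type to 51.8% in the highest homozygous library, and homozygous and wild-type points overlap for the *Pgam1*, *Eno1* and *Slc2a1* pairs.

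Homozygous against heterozygous hearts, a comparison that uses the same homozygous libraries, gave 0 called among the 45 genes, with 0.0439% of all genes called. At an unadjusted p under 0.05, 7 of the 45 were lower and none higher, against 2.32% and 4.83% of all genes. All 16 glycolytic genes were below 0, with a median of -0.19, and 15 of 17 TCA cycle genes, with a median of -0.06, beside a median of 0.08 over all genes. Homozygous libraries lay below all heterozygous libraries for 7 glycolytic genes, 4 lactate and transport genes, no pyruvate dehydrogenase gene and 1 TCA cycle gene, against 3.85% of all genes. The glycolytic genes were *Hk2*, *Pfkl*, *Pfkp*, *Aldoa*, *Aldoc*, *Pgk1* and *Pkm*, and the TCA cycle gene was *Sdhb*. *Slc16a3* differed by -0.59 (SE 0.14 with limma, adjusted p = 0.416). After median-ratio scaling its change was -0.67 and was called (limma adjusted p = 0.0235), against 0.095% of all genes called lower, also without homozygous replicate 3. The heterozygous libraries were all female and held the liver-rich replicate. With sex as a covariate 0 of the 45 genes were called on the TPM scale and the glycolytic median minus the TCA median was -0.12, and without heterozygous replicate 1 the count was 0 and the difference -0.11.

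Heterozygous against wild-type hearts gave 0 called genes among the 45, with 0.0146% of all genes called. On the TPM scale none of the 45 passed an unadjusted p under 0.05, against 6.87% of all genes, and none was separated from wild type, against 13.8%. The medians were 0.06 for glycolysis and 0.05 for the TCA cycle, beside 0.15 for all genes. *Slc16a3* had a log2 change of -0.14 (SE 0.14 with limma, adjusted p = 0.735), with a 95% interval of -0.46 to 0.18.

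Median-ratio scaling turned these medians below 0, to -0.10 for glycolysis, with 13 of 16 genes below 0, and -0.11 for the TCA cycle, with 16 of 17, beside 0.00187 for all genes. No gene of the 45 was called on this scale. At an unadjusted p under 0.05, 8 were lower and 0 higher, against 3.16% of all genes lower, namely *Gapdh*, *Tpi1*, *Pgk1*, *Slc16a3*, *Slc2a4*, *Suclg1*, *Sdhb* and *Mdh1*. Every heterozygous library lay below every wild-type library for 22 of the 45, against 6.97% of all genes, among them 7 glycolytic and 10 TCA cycle genes. The scaled change of *Slc16a3* was -0.31 (SE 0.08 with limma, adjusted p = 0.846), and that of *Gapdh* was -0.26 (limma adjusted p = 0.846).

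Genes of neighbouring pathways were taken from lists of further glycolytic genes, further pyruvate and TCA cycle genes, redox shuttles, glycogen metabolism and the hypoxia response. In homozygous against wild-type hearts on the TPM scale, 1 gene of these lists was called, the neuronal-type glucose transporter *Slc2a3* (GLUT3, chr6:122727809-122801640). Its levels were 3.38, 3.56 and 3.84 TPM in the wild-type, 4.79, 4.51 and 5.59 TPM in the heterozygous and 7.83, 9.35 and 9.86 TPM in the homozygous libraries. Every homozygous library was above every other library, at low absolute levels, and *Slc2a3* rose by a log2 change of 1.12 (SE 0.15 with limma, adjusted p = 0.0134). It was called in 19 of the 26 settings that tested it. It was not called without the 3 libraries that stood apart (1.02, limma adjusted p = 0.145).

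Of 15 further glycolytic genes tested, none was called lower and the median was 0.15, which median-ratio scaling moved to -0.01. The highest after *Slc2a3* was the D-lactate dehydrogenase *Ldhd*, at 1.08, 1.16 and 1.14 TPM in the wild-type, 1.69, 1.55 and 1.44 TPM in the heterozygous and 1.98, 3.15 and 3.77 TPM in the homozygous libraries, with a log2 change of 0.87 (SE 0.23 with limma, adjusted p = 0.101). The lowest were *Bpgm*, which makes the haemoglobin effector 2,3-bisphosphoglycerate and is abundant in red cells, at -0.14, and the fructose bisphosphatase *Tigar*, at -0.12.

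Of 21 further pyruvate and TCA cycle genes, 0 were called on the TPM scale and the median was 0.19. *Mpc1* and *Mpc2* encode the carrier that brings pyruvate into mitochondria. *Mpc1* stood at 229.5, 228 and 237 TPM in the wild-type, 225, 209.8 and 237 TPM in the heterozygous and 212, 188 and 186 TPM in the homozygous libraries. *Mpc2* stood at 198, 177 and 205 TPM in the wild-type, 184, 188 and 184 TPM in the heterozygous and 155, 176 and 155 TPM in the homozygous libraries. Homozygous libraries lay below wild-type libraries for both without overlap, and the log2 changes of -0.24 (SE 0.09 with limma, adjusted p = 0.154) and -0.25 (SE 0.10 with limma, adjusted p = 0.155) were the lowest of the list. At the upper end *Ogdhl*, a relative of *Ogdh*, stood at 4.31, 5.98 and 5.90 TPM in the wild-type, 7.71, 8.12 and 8.14 TPM in the heterozygous and 11.3, 11.9 and 8.65 TPM in the homozygous libraries, with no overlap and a log2 change of 0.86 (SE 0.16 with limma, adjusted p = 0.064), followed by the complex II assembly factor *Sdhaf3* at 0.40. After median-ratio scaling the median was -0.04 and 4 genes of the list were called. *Mpc1* fell by 0.49 (limma adjusted p = 0.0345), *Mpc2* by 0.50 (limma adjusted p = 0.0346) and *Pdhx*, a structural subunit of the pyruvate dehydrogenase complex, by 0.38 (limma adjusted p = 0.0407), and *Ogdhl* rose by 0.65 (limma adjusted p = 0.0376).

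Of the 9 shuttle genes 0 were called on the TPM scale, with a median of -0.01. The extremes were the glycerol 3-phosphate dehydrogenase *Gpd1* at 1.10 (limma adjusted p = 0.108) and the citrate carrier *Slc25a1* at 0.20, against the transaminases *Got1* at -0.17 and *Got2* at -0.20. After median-ratio scaling the median was -0.25, and *Got1* fell by 0.41 (limma adjusted p = 0.0432) and *Got2* by 0.44 (limma adjusted p = 0.0452). Of the 12 glycogen genes 0 were called on the TPM scale, with a median of 0.20, from *Ugp2* at -0.25 and *Gyg* at -0.20 to the phosphatase targeting subunit *Ppp1r3c* at 0.59 and the phosphorylase *Pygl* at 0.64. After median-ratio scaling the median was -0.03, and *Ugp2*, which makes the UDP-glucose used for glycogen, fell by 0.49 (limma adjusted p = 0.0242).

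Of the 15 hypoxia-response genes 0 were called on the TPM scale, with a median of 0.13, and values lay on both sides of wild type. *Bnip3*, a mitophagy receptor, stood at 143, 119 and 129 TPM in the wild-type, 135, 129.5 and 117 TPM in the heterozygous and 98.9, 109 and 78.1 TPM in the homozygous libraries. *Higd1a*, a mitochondrial hypoxia-induced gene, stood at 55.6, 52.4 and 59.4 TPM in the wild-type, 53.6, 52.4 and 54.5 TPM in the heterozygous and 44.2, 41.9 and 36.9 TPM in the homozygous libraries. Both were below all wild-type libraries in homozygous hearts, with log2 changes of -0.46 (SE 0.14 with limma, adjusted p = 0.118) and -0.44 (SE 0.11 with limma, adjusted p = 0.0983). The mTORC1 inhibitor *Ddit4* stood at 20.4, 24.8 and 18.4 TPM in the wild-type, 25.5, 30.7 and 26.9 TPM in the heterozygous and 34.3, 39.0 and 31.3 TPM in the homozygous libraries. Homozygous libraries were above all wild-type libraries for *Ddit4* and for the peptide hormone gene *Adm*, with log2 changes of 0.69 (SE 0.14 with limma, adjusted p = 0.0764) for *Ddit4* and 0.60 (SE 0.17 with limma, adjusted p = 0.114) for *Adm*. *Hif1a* itself, the oxygen-regulated subunit of the factor, had a log2 change of 0.13 (limma adjusted p = 0.625). After median-ratio scaling the median of the list turned to -0.11, and *Higd1a* fell by 0.68 (limma adjusted p = 0.00565) and *Bnip3* by 0.70 (limma adjusted p = 0.0406).

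In all, 10 genes of these lists were called after median-ratio scaling, against 1.67% of all genes. Without homozygous replicate 3 there were 7, with *Bnip3*, *Got1* and *Got2* no longer called, and without the 3 libraries that stood apart 0.

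Some of the enzymes have processed copies elsewhere in the genome, which can share reads with them. The share of 31-base words of a gene's transcripts that also occur in other genes was 54.7% for *Pgk1*, 37.1% for *Pgam1*, 34.7% for *Pkm*, 33.0% for *Ldhb*, 28.5% for *Eno1*, 28.1% for *Gapdh* and 19.6% for *Ldha*, and levels of these genes depend on how shared reads were assigned. It was 0 for *Slc16a3*, *Slc16a1*, *Pdk2*, *Idh2* and *Sdhb*.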

How the data were processed

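RNA of 9 hearts of E18.5 mouse embryos was captured by poly-A selection and sequenced by the authors. Per the labels and the study's methods, reads were trimmed with Trim Galore, aligned to mm10 with STAR and quantified with RSEM. The deposited values are TPM, to which the authors had scaled estimated counts by gene length and library total. TPM keeps no read numbers, so the depth is unknown, and precision can be read only from how far the libraries of a group differ. The annotation and the use of strand are not given in the sources used here.

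The 26 symbols turned into dates were left out (at most 0.0921% of a library), which left 24571. Values were analysed as log2(TPM + 1) for the 13682 genes that averaged 1 TPM or more, so that changes of low genes are understated. A model of the 3 genotypes was fitted to all 9 libraries in R (version 4.3.3) with limma (version 3.58.1; lmFit, contrasts.fit, eBayes with trend), without covariates. Tests were two-sided, with Benjamini-Hochberg adjustment over all tested genes of a comparison, and an adjusted p under 0.05 was called. The comparisons share groups. Groups came from the titles, and where litters are unknown the p-values measure only the spread between these libraries. The procedure was tested on simulated data in which genes varied independently. That test does not show how the fit behaves when a whole library shifts.

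The members, all gene lists and the choice of genes to name were made with earlier results of these data known. Values per library were given for the most abundant gene of each step, for 7 isoform pairs, and for the 3 highest and 3 lowest log2 changes. Genes of other lists were named if called or among the 2 highest and 2 lowest of a list. Libraries with a summed level of at least 100 TPM of thymocyte, airway and lung, or liver genes were taken to stand apart. Alternatives changed the pseudocount, filter, scaling, model, sex term, replicate block and libraries, 27 settings with the one reported. Of these, the filter at 30 TPM, the combinations of scaling with left-out libraries, the scaled calls of the other lists, and the other definitions of the ratio were chosen after seeing the data. Gene coordinates and 31-base words were taken from GENCODE M21 on mm10, and promoters from RefSeq on GRCm38.p6. *Aldoa* has more than 1 annotated gene of that name, so no gene coordinates are given for it.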

Additional observations from a re-analysis of the deposited data

How the results depend on the processing

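In homozygous against wild-type hearts 0 of the 45 genes were called in 21 of 27 settings. The exceptions were 12 genes after median-ratio scaling (8 with homozygous replicate 3 left out as well), 1 after quantile normalization, 1 after removal of mitochondrially encoded and haemoglobin genes, and 4 with library weights (*Slc16a3* lower, *Hk1*, *Pdk2* and *Idh2* higher, when 37% of all genes were called). Leaving out 1 library at a time gave 0 to 1, the 1 being *Slc16a3* without wild-type replicate 3, when 15.9% of all genes were called. In homozygous against heterozygous hearts the count was 1 after median-ratio scaling, with and without homozygous replicate 3, and 0 otherwise, and in heterozygous against wild-type hearts it was 0 in all 27 settings.

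The difference between the glycolytic and TCA medians in homozygous against wild-type hearts moved from -0.20 to -0.16 with a pseudocount of 5, -0.14 after quantile normalization, -0.16 with library weights, -0.13 without the 3 libraries that stood apart and -0.13 when these were left out after median-ratio scaling. It ranged from -0.23 to -0.15 over single left-out libraries. In homozygous against heterozygous hearts it stayed between -0.14 and -0.10. In heterozygous against wild-type hearts it was 0.01 and ranged from -0.024 with sex as a covariate to 0.031 with library weights. It was below 0 in 4 of the 27 settings, among them -0.021 without wild-type replicate 2. The cause of these shifts was not tested. The number of genes below the median of all genes in homozygous against wild-type hearts ranged from 36, after quantile normalization, to 45.

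The replicate numbers were not taken to pair the libraries. Correlations of deviations from the group means ran from -0.031 to 0.359 for same-numbered and from -0.314 to 0.121 for different-numbered libraries. The highest were same-numbered, between wild-type and heterozygous replicates 1 (0.359) and replicates 3 (0.297). Whether the numbers stand for something the libraries share was not tested. With the replicate number as a block, 0 of the 45 genes were called in each comparison, and the differences between the medians stayed at -0.20, -0.13 and 0.01. *Slc2a3* was not called without a filter (limma adjusted p = 0.0564), with only both groups compared in the fit (0.0899), or without wild-type replicate 1 (0.0666), wild-type replicate 2 (0.0926) or homozygous replicate 2 (0.0725). Since TPM keeps no read numbers, the limit that depth sets is unknown.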
